A study of Mus musculus with 2 samples.

Results

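The 8 genes of the suppressor of cytokine signalling (SOCS) family, Cish and Socs1 to Socs7, were examined in mouse CD8+ T cells that had been deprived of methionine. They were chosen by name as the whole family, without use of their values, from 54532 Ensembl genes in the deposited count table. Earlier results of these data were known when the choice was made. All 8 members lay above the minimum mean of 10 counts over the libraries, as did 13041 genes in all. The data were 2 bulk RNA-seq libraries of primary splenic CD8+ T cells from WT mice, described in the labels as ND, an abbreviation that they do not spell out. The cells of 1 library had been cultured for 8 h in RPMI 1640 without methionine, and those of the other for 8 h in complete RPMI 1640. The sources used here do not give the strain, the age, any stimulus in the culture or whether the same animals supplied both cultures. With 1 library per medium, none of the differences could be checked against replicates, and p-values are left out.

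SOCS proteins are the classical negative feedback arm of cytokine signalling. A cytokine receptor activates Janus kinases (JAKs), which phosphorylate STAT transcription factors, and these switch on genes that include several of the SOCS family. The SOCS protein then binds the phosphorylated receptor or the kinase through its SH2 domain, and its SOCS box recruits elongins, a cullin and a RING protein that ubiquitinate the captured target. SOCS1 and SOCS3 can also block the catalytic site of JAK1, JAK2 and TYK2 directly. In CD8+ T cells, CIS (the product of Cish) is known to restrain interleukin-2 and T cell receptor signalling, and SOCS1 to restrain responses to interleukin-15 and interferon gamma.

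RefSeq promoter windows, of 250 bases before and 50 bases from the start site on, were matched for 4 of the 8 members: Cish, Socs1, Socs3 and Socs4. They were searched on both strands for TTCNNNGAA, the letters of a STAT element, and for a direct repeat of GAAA with any 2 bases between the copies, the letters of an interferon regulatory factor element. The stretches that held a match are shown because these factors stand upstream of the SOCS genes in the feedback loop; capitals mark the matched letters, and each is read 5′ to 3′ on the gene's own strand.
Cish: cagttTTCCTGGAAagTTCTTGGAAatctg
Socs3: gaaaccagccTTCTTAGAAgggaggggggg
Socs1: cttgccgGAAAGAGAAACCGAAAgcggggg
The Cish stretch lies at chr9:107296654-107296683 on the plus strand of GRCm38.p6, and holds 2 matches of the STAT letters, the first beginning at the RefSeq start site and the second 11 bases after it. The Socs3 stretch, at chr11:117969501-117969530 on the minus strand, holds 1 match, at position -154 from a RefSeq start site. The Socs1 window held none of the STAT letters and 2 overlapping matches of the interferon regulatory factor letters, at positions -83 and -77, shown at chr16:10785597-10785626 on the minus strand. The Socs4 window held neither motif. Of 32851 RefSeq promoter windows of the same length, 8.30% held the STAT letters and 3.44% the interferon regulatory factor letters. A match describes the sequence and is not evidence that a factor was bound there.

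Total counts were 19647681 without methionine, over 18374 genes, and 14646527 in complete medium, over 19110 genes. Levels are given in CPM, counts per 1000000 after TMM scaling, and a single count was worth 0.0510 CPM in the methionine-free library and 0.0681 CPM in the complete-medium library. The 95% interval after a fold is the exact conditional interval of the 2 counts, which covers counting error only. All 10 genes of the CD8 T cell list had counts in both libraries, with differences between -0.33 and 0.08 on the log2 scale. Besides Cd8a and Cd8b1, this list holds general T cell genes. Of the markers of other cell types, the 8 B cell genes summed to 131 CPM without methionine and 214 CPM in complete medium, mostly Ighm, and the 7 dendritic cell genes to 26.9 and 8.38 CPM. The dendritic sum is mostly Zbtb46, at 18.3 CPM without methionine and 5.24 CPM in complete medium, and Flt3, at 7.60 and 2.25 CPM; Itgax had 16 and 8 counts, Xcr1 2 and 5, Clec9a and Siglech 1 and 0 each, and Cd209a 0 in both. The 10 macrophage and monocyte genes summed to 6.74 CPM without methionine and 6.20 CPM in complete medium, with 5 and 3 of them at 0, and C1qa, C1qc and Fcgr1 at 0 in both. The 5 CD4 T cell genes summed to 125 CPM without methionine and 74.4 CPM in complete medium, of which Zbtb7b held 64.7 and 10.3 CPM. The other 4 summed to 60.5 CPM without methionine and 64.1 CPM in complete medium, and Cd4 itself had 11 and 9 counts. The NK cell genes summed to 2.14 CPM without methionine and 2.38 CPM in complete medium, those of red cells to 1.84 and 1.43 CPM, and those of neutrophils to 0.102 and 0.204 CPM. The part of these other cells in the SOCS values was not tested.

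The comparison asks how the feedback inhibitors of cytokine signalling differed after 8 h without methionine. No member of the family reached 2-fold in either direction, while 5.8% of all tested genes were higher by 2-fold or more without methionine and 9.29% were lower by as much. At 1.5-fold, 3 of the 8 members were higher (Socs5, Socs4 and Cish), against 15.7% of all tested genes, and 1 was lower (Socs2), against 18.0%. The other 4 members lay between these limits. The median log2 difference of the family was 0.13, and that of all tested genes 0.04.

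**Figure D1:**
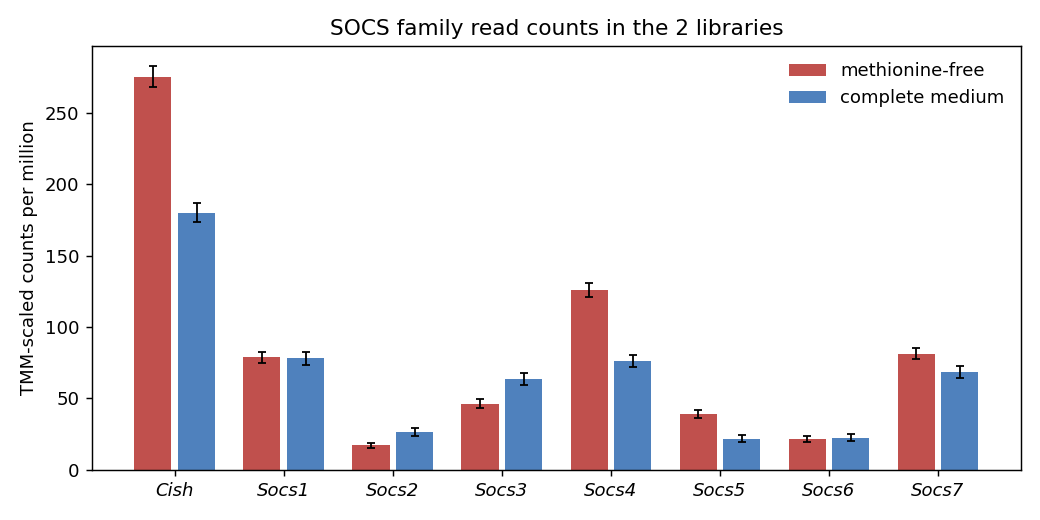
Bars give the TMM-scaled CPM of each SOCS family gene in the methionine-free library (left of each pair) and in the complete-medium library (right), and error bars the exact 95% Poisson interval of the count. The Cish pair is the tallest in the family, at 275 CPM without methionine and 180 CPM in complete medium, and the bars of Socs2 and Socs3 are lower without methionine.

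Cish (ENSMUSG00000032578), on the plus strand of chromosome 9 from 107296026 to 107302784, was the most abundant member. It had 5397 counts in the methionine-free library, against 2646 counts in the complete-medium library, or 275 and 180 CPM. This made Cish 1.53-fold higher without methionine (1.46 to 1.60), a log2 difference of 0.61 that lay at percentile 85.1 of all tested genes. The interval reaches below 1.5, so counting error alone leaves it unclear on which side of that limit the gene lies. The 2 annotated genes that overlap Cish on the opposite strand, Gm17040 and Gm17041, had at most 7 counts in either library.

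Socs1 (ENSMUSG00000038037, chromosome 16, 10782240 to 10785536, minus strand), whose product blocks JAK1, JAK2 and TYK2 and is strongly induced by interferon gamma, showed nearly the same level in both media. It had 1542 counts without methionine, against 1146 counts in complete medium, which is 78.7 and 78.0 CPM. The ratio was 1.01 (0.934 to 1.09), so no difference in Socs1 was detectable at this depth, and one beyond these bounds would exceed the counting error.

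Socs3 (ENSMUSG00000053113, chromosome 11, 117966079 to 117970047, minus strand), the inhibitor that binds the interleukin-6 family receptor subunit gp130, was lower without methionine. It had 908 counts without methionine, against 932 counts in the smaller complete-medium library, or 46.3 and 63.5 CPM. The level was 1.37-fold lower (1.25 to 1.5), at percentile 22.3 of all tested genes. Its interval lay wholly below a ratio of 1, as did that of Socs2 alone among the other members.

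Socs2 (ENSMUSG00000020027, chromosome 10, 95385362 to 95417180, minus strand), best known as the brake on growth hormone receptor signalling, had the lowest difference in the family. It had 333 counts without methionine, against 386 counts in complete medium, or 17.0 and 26.3 CPM. This was 1.55-fold lower (1.33 to 1.80), a log2 difference of -0.63 at percentile 16.7. Cish and Socs2, both textbook targets of STAT5, thus lay on opposite sides.

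The long members, Socs4 to Socs7, carry extended N-terminal regions and are less closely tied to cytokine induction. Socs5 (ENSMUSG00000037104, chromosome 17, 87107679 to 87137839, plus strand), linked to interleukin-4 receptor and epidermal growth factor receptor signalling, had the highest difference of all 8. It had 767 counts without methionine, against 316 counts in complete medium, or 39.1 and 21.5 CPM. It was 1.82-fold higher (1.59 to 2.08), a log2 difference of 0.86 at percentile 92.0. Socs4 (ENSMUSG00000048379, chromosome 14, 47276931 to 47296102, plus strand), also linked to epidermal growth factor receptor turnover, had 2463 counts without methionine, against 1118 counts in complete medium, or 126 and 76.1 CPM. It was 1.65-fold higher (1.54 to 1.77), a log2 difference of 0.72 at percentile 88.6. For Socs4 and Socs5 the whole interval lay above 1.5-fold, whereas that of Cish did not.

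Socs7 (ENSMUSG00000038485, chromosome 11, 97362551 to 97398542, plus strand), whose product binds the adapter NCK and insulin receptor substrates, had 1594 counts without methionine, against 1001 counts in complete medium. This was 81.4 and 68.2 CPM, 1.19-fold higher (1.10 to 1.29). Socs6 (ENSMUSG00000056153, chromosome 18, 88665224 to 88927481, minus strand), whose product is known to bind the receptor tyrosine kinase KIT, had 417 counts without methionine, against 328 counts in complete medium. This was 21.3 and 22.3 CPM, a ratio of 0.953 (0.823 to 1.10) whose interval held 1. The interval thus left out 1 for 6 members, those other than Socs1 and Socs6. The share of all tested genes with such an interval is not given here, so this count is no measure of the family. The 3 annotated processed pseudogenes that overlap Socs6 were not analysed here, and the remaining 6 members overlap no annotated gene.

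**Figure D2:**
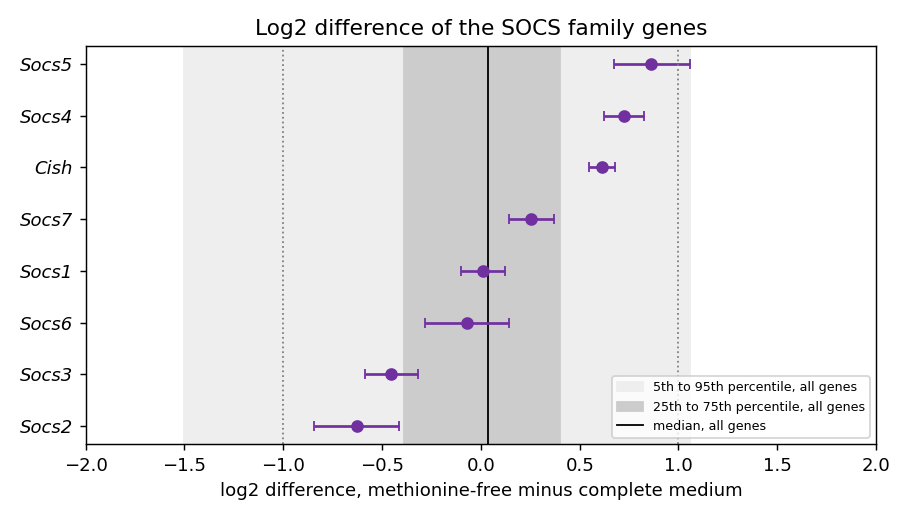
Points give the log2 difference, methionine-free minus complete medium, of each SOCS family gene with its 95% counting interval; dark and light grey bands hold the central parts of all 13041 tested genes, and dotted lines mark 2-fold. Socs5, at 0.86, and Socs2, at -0.63, are the ends of the family, and every member lies inside the light band.

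Summed over the family, there were 685 CPM without methionine and 536 CPM in complete medium, a ratio of 1.28 (1.24 to 1.31). Cish and Socs1 to Socs3 together had 417 CPM without methionine and 348 CPM in complete medium, a ratio of 1.20 (1.16 to 1.24). Within these 4 genes the sum is mostly Cish, and their median log2 difference was -0.22, so the sum and the median differ in sign. Socs4 to Socs7 together had 267 CPM without methionine and 188 CPM in complete medium, a ratio of 1.42 (1.36 to 1.49), with a median log2 difference of 0.49. Of these 4, 2 were past 1.5-fold in the higher direction, against 15.7% of all tested genes, and none in the lower, against 18.0%. The largest part of this sum is Socs4, at 126 CPM without methionine and 76.1 CPM in complete medium. In bulk RNA, fewer cells with a transcript and less of it per cell cannot be told apart.

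To compare levels between genes, CPM were divided by the kilobases of annotated exon. Without methionine the order was Cish at 42.9, Socs1 at 27.1, Socs4 at 18.3, Socs3 at 16.0, Socs7 at 11.2, Socs5 at 6.10, Socs6 at 1.88 and Socs2 at 1.78 CPM per kb. In this order Socs6 and Socs2 were not separated beyond their counting intervals, of 1.7 to 2.06 and 1.60 to 1.99 CPM per kb. In complete medium the order was Cish at 28.1, Socs1 at 26.8, Socs3 at 22.0, Socs4 at 11.1, Socs7 at 9.38, Socs5 at 3.35, Socs2 at 2.76 and Socs6 at 1.97 CPM per kb. Here the intervals of Cish, 27.0 to 29.2, and Socs1, 25.3 to 28.4 CPM per kb, overlapped. The order of Socs3 and Socs4 was thus reversed between the media, as was that of Socs2 and Socs6, although those 2 were not separated in the methionine-free library.

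As a share of the summed family level per kb, Cish made up 34.3% without methionine and 26.6% in complete medium. Socs3 made up 12.8% without methionine and 20.8% in complete medium, and Socs1 21.6% and 25.5%. Socs4 held 14.6% without methionine and 10.5% in complete medium. Together, Socs4 to Socs7 held 29.9% without methionine and 24.5% in complete medium. These shares rest on the annotated exon lengths, which may not be those of the transcripts in these cells: Socs2 has 14 annotated transcripts. With the length of the longest transcript in place of all exons, Cish made up 39.2% without methionine and 30.6% in complete medium. Socs2 then lay above Socs6 in both libraries. Without methionine, however, their counting intervals, of 3.59 to 4.46 and 3.20 to 3.88 CPM per kb, overlapped. By that length Socs4 and Socs3, at 18.3 and 18.2 CPM per kb without methionine, were not separated beyond their counting intervals. Their reversed order between the media thus rests on the length used. The overlap of Cish and Socs1 in complete medium does so too. By the longest transcript they were separated there, at 38.4 (36.9 to 39.8) and 26.8 (25.3 to 28.4) CPM per kb.

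**Figure D3:**
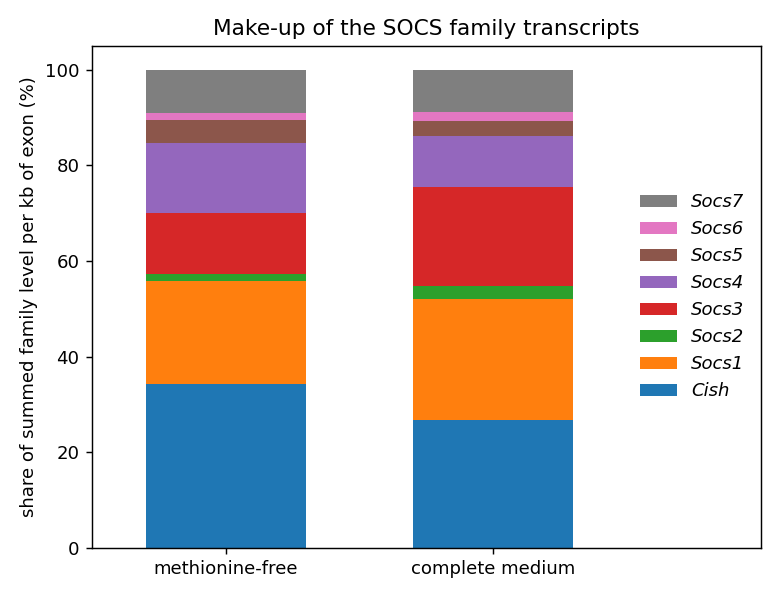
Each stacked bar divides the summed SOCS family level, in CPM per kb of annotated exon, into the percentage held by each gene, with the methionine-free library on the left and the complete-medium library on the right. The Cish segment is 34.3% without methionine and 26.6% in complete medium, and the Socs3 segment 12.8% and 20.8%.

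Ratios between members within a library need no scaling between libraries. For all 28 pairs, the count ratio without methionine was divided by that in complete medium. The counting interval of this quotient left out 1 in 24 pairs and held 1 in 4. The pairs share members, and the share over all pairs of tested genes is not given here. This count is therefore no measure of the family. Socs5 over Socs2 had the widest divergence, with a count ratio of 2.3 without methionine and 0.819 in complete medium, a quotient of 2.81 (2.3 to 3.44). Cish over Socs2 had a count ratio of 16.2 without methionine and 6.85 in complete medium, a quotient of 2.36 (2.02 to 2.77). Cish over Socs3 had 5.94 without methionine and 2.84 in complete medium, a quotient of 2.09 (1.89 to 2.32). Cish over Socs1, the most abundant members per kb in complete medium, had 3.50 without methionine and 2.31 in complete medium, a quotient of 1.52 (1.38 to 1.66). The 4 pairs not separated by counting were Socs3 over Socs2, Socs5 over Socs4, Socs4 over Cish and Socs1 over Socs6, with quotients between 1.06 and 1.13.

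**Figure D4:**
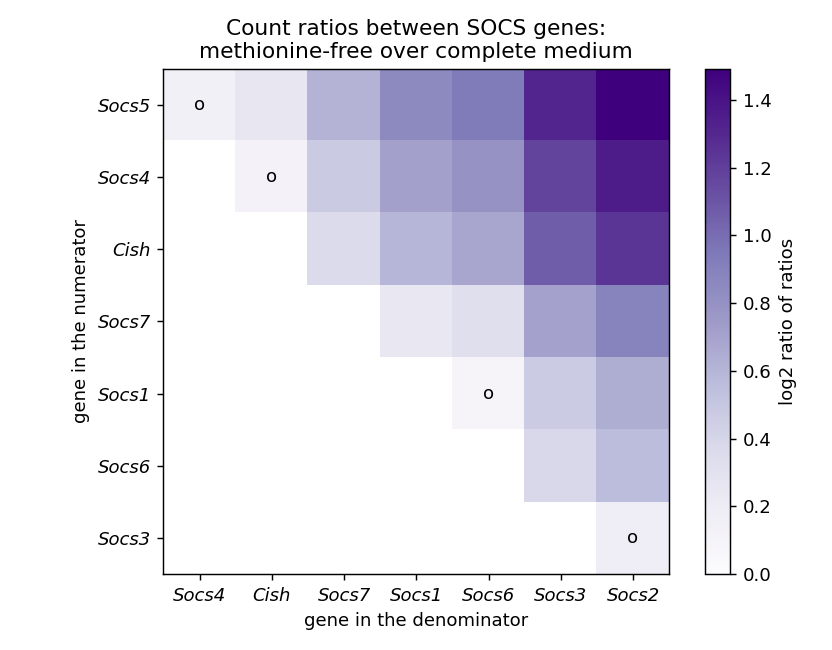
Each cell gives, as log2, the count ratio of the row gene to the column gene in the methionine-free library over the same ratio in complete medium, with genes ordered by their log2 difference. Circles mark the 4 pairs whose 95% counting interval held a quotient of 1; Socs5 over Socs2, with a quotient of 2.81, is the darkest cell.

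The nearest protein-coding gene on each side was compared with each member. Socs4 and Wdhd1, which encodes a DNA replication factor, lie head to head with 73 bases between their annotated ends, and differed in opposite directions. Wdhd1 had 38.8 CPM without methionine and 123 CPM in complete medium, 3.17-fold lower (2.91 to 3.46), while Socs4 was 1.65-fold higher. On the other side of Socs4, Mapk1ip1l had a ratio of 1.12 (1.07 to 1.18). Cish and its neighbour Mapkapk3, a kinase gene 6148 bases away on the opposite strand, were higher together: Mapkapk3 had 190 CPM without methionine and 112 CPM in complete medium, 1.7-fold higher (1.60 to 1.80). Hemk1, on the far side of Cish, was 1.25-fold lower (1.10 to 1.42). Socs2 and the mitochondrial ribosomal protein gene Mrpl42, 63624 bases away, were both lower, with 50.2 CPM without methionine and 79.9 CPM in complete medium for Mrpl42, 1.59-fold lower (1.46 to 1.74). For Socs5, Mcfd2 was 1.80-fold higher (1.62 to 2.01) at a distance of 116603 bases, while Cript on the other side had a ratio of 0.996 (0.877 to 1.13). Next to Socs1, Clec16a had a ratio of 1.13 (0.990 to 1.29), and Tnp2 3 counts without methionine and 15 in complete medium. Next to Socs3, Pgs1 had a ratio of 1.05 (0.972 to 1.14) and Tha1 was 2.63-fold lower (1.92 to 3.62), with 62 counts without methionine and 122 in complete medium. Next to Socs6, Rttn was 1.75-fold lower (1.54 to 2.0), and Gm5096 had no counts. The neighbours of Socs7, Gpr179 and Arhgap23, had at most 13 counts in either library.

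The SOCS box works through a ubiquitin ligase shared by the family, of elongins, a cullin and a RING protein. None of the 6 partner genes reached 1.5-fold, against 33.7% of all tested genes in either direction, and their median log2 difference was -0.09. Cul5, the cullin that SOCS proteins recruit, came closest, with 88.0 CPM without methionine and 59.0 CPM in complete medium, a ratio of 1.49 (1.37 to 1.62). The elongin genes Elob and Eloc had ratios of 0.884 (0.825 to 0.946) and 0.829 (0.764 to 0.899). Rnf7, the RING partner of Cul5, had a ratio of 0.933 (0.861 to 1.01), and Cul2 and Rbx1, which serve other elongin ligases, 0.941 (0.875 to 1.01) and 1.07 (0.997 to 1.14).

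Among the 3 kinase genes whose products SOCS1 and SOCS3 block, Jak1, Jak2 and Tyk2, only Jak2 was past 2-fold. Of all 4 JAK genes, 1 was past 2-fold in the higher direction, Jak2, against 5.8% of all tested genes. In the lower direction 1 was past 2-fold, Jak3, against 9.29%. The median log2 difference of the list was 0.06. Jak2 had 252 CPM without methionine and 114 CPM in complete medium, 2.22-fold higher (2.10 to 2.35), and Jak3 202 and 444 CPM, 2.20-fold lower (2.11 to 2.28). Jak1 and Tyk2 had ratios of 0.840 (0.810 to 0.871) and 1.29 (1.19 to 1.38). Il2rb, the interleukin-2 receptor beta chain to which CIS binds, had 793 CPM without methionine and 1559 CPM in complete medium, 1.97-fold lower (1.93 to 2.01). Cish counts per Il2rb count were therefore 0.347 without methionine and 0.116 in complete medium, a quotient of 3.01 (2.86 to 3.16). Socs1 counts per Jak2 count were 0.312 without methionine and 0.686 in complete medium, 2.20-fold lower (2.0 to 2.42), whereas Socs1 counts per Jak1 count were 0.241 and 0.201, a quotient of 1.20 (1.10 to 1.31). Socs3 counts per count of Il6st, the gp130 gene, were 0.417 without methionine and 0.633 in complete medium, 1.52-fold lower (1.36 to 1.7). Socs3 counts per Jak2 count were 3.04-fold lower (2.72 to 3.38). These pairs were chosen from known binding after the values were seen.

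Of 23 tested receptor genes of the pathway, 2 were past 2-fold, both of them lower, against 9.29% of all tested genes, and the median log2 difference was -0.06. With a minimum of 100 counts, 1 of them remained, Il10ra. Il10ra was 2.45-fold lower (2.31 to 2.61), and Epor had 14 counts without methionine and 34 in complete medium. Il2rg, Il7r, Il4ra and Ifngr1 had ratios of 1.22 (1.16 to 1.29), 0.680 (0.613 to 0.755), 0.970 (0.928 to 1.01) and 0.949 (0.904 to 0.995). Of 6 listed STAT genes, none reached 2-fold, against 15.1% of all tested genes in either direction, and the median log2 difference was 0.11. Stat5a, whose product is the best known activator of Cish, had 477 CPM without methionine and 244 CPM in complete medium, 1.96-fold higher (1.89 to 2.04). Its close homologue Stat5b had a ratio of 1.08 (1.04 to 1.13) and Stat3 0.896 (0.867 to 0.926).

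Of 14 tested cytokine genes that signal through JAKs, 7 were past 2-fold in the higher direction and 3 in the lower. Over all tested genes these shares were 5.8% and 9.29%. Several of the 7 passed the minimum only through their counts without methionine, so this count is no measure of the list. Examples are Il2, with 47 counts without methionine and 3 in complete medium, and Il21, with 17 and 4. With a minimum of 100 counts, 3 were higher and 1 lower. The 3, Il23a, Csf2 and Il12b, had 5, 35 and 49 counts in complete medium, so the stricter count has the same limit. Among the better counted ones, with a mean over 50 counts, Il12b was 2.86-fold higher (2.08 to 4.0) and Csf2 4.78-fold higher (3.33 to 7.03). Lif was 2.07-fold lower (1.95 to 2.18), and Il23a had 818 counts without methionine and 5 in complete medium. The others with such a mean stayed within 2-fold. Ifng, the interferon gamma gene, was 1.87-fold higher (1.80 to 1.94) and Osm 1.57-fold lower (1.39 to 1.76). Il22 had a ratio of 1.43 (0.977 to 2.12). None of the 15 other tested JAK-STAT inhibitor genes reached 2-fold, against 15.1% of all tested genes in either direction. Their median log2 difference was 0.17. Among them, Usp18, which restrains the type I interferon receptor, was 1.95-fold lower (1.72 to 2.22). The phosphatase genes Ptpn2 and Ptpn6 had ratios of 1.22 (1.14 to 1.31) and 0.706 (0.677 to 0.736).

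The other transcriptional targets of the same STATs give the setting in which Cish, Socs1 and Socs3 were read. Of 20 listed STAT5 targets of interleukin-2, 1 was past 2-fold in the higher direction, against 5.8% of all tested genes. In the lower direction 3 were past 2-fold, against 9.29%, and the median log2 difference was -0.02. The 1 higher gene, Bcl2l1, fell short of 2-fold when TMM was computed over protein-coding genes. Like Cish, Pim1 lay higher, at 1.81-fold (1.76 to 1.86), Bcl2l1 at 2.01-fold (1.91 to 2.12) and Bcl2 at 1.41-fold (1.37 to 1.45), whereas Tnfrsf8 was 3.85-fold lower (3.14 to 4.76), Ccnd3 2.47-fold lower (2.34 to 2.60) and Gzmb 2.39-fold lower (2.35 to 2.43). Of 17 listed targets of interferon gamma, 3 were past 2-fold, each of them higher, against 5.8% of all tested genes. The median log2 difference of the list was -0.05. At 1.5-fold, 3 were higher, against 15.7% of all tested genes, and 3 lower, against 18.0%. The lower ones were Psmb8, Iigp1 and Psmb9, with ratios of 0.602 (0.577 to 0.630), 0.608 (0.574 to 0.644) and 0.636 (0.600 to 0.675). With a minimum of 100 counts, 1 was past 2-fold, Cxcl10. Socs1 and the transcription factor gene Irf1, with a ratio of 1.13 (1.09 to 1.17), both stayed within 1.5-fold, while Cxcl10 was 2.25-fold higher (1.88 to 2.70) and Ciita 3.83-fold higher (2.32 to 6.63). Of 11 tested STAT3 targets, 2 were past 2-fold, each of them higher, against 5.8% of all tested genes. At 1.5-fold there were 7, each of them higher, against 15.7%, and the median log2 difference was 0.7. Il21, 1 of the 2, passed the minimum only through its 17 counts without methionine, against 4 in complete medium. A minimum of 100 counts left 1 past 2-fold, Batf. Batf was 2.12-fold higher (1.88 to 2.40), whereas Socs3, a STAT3 target itself, was 1.37-fold lower. Within the list, Bcl3 was lower as well, with a ratio of 0.847 (0.767 to 0.934).

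**Figure D5:**
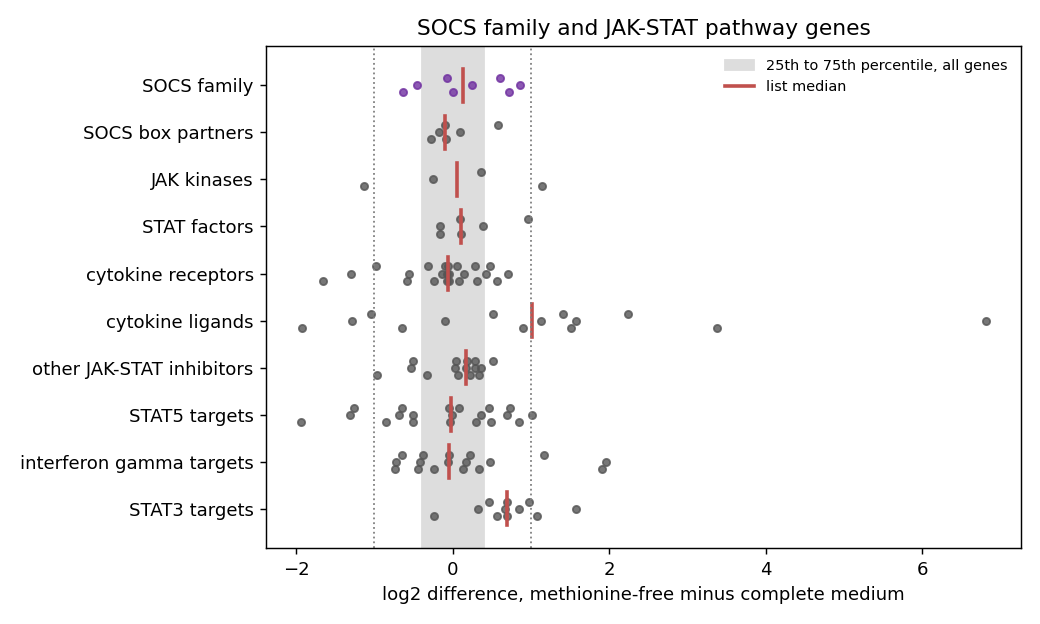
Each point is a tested gene, placed by its log2 difference, methionine-free minus complete medium, in the SOCS family (top row) and in 9 lists of the JAK-STAT pathway; red lines are list medians, the grey band holds the middle of all tested genes and dotted lines mark 2-fold. The SOCS points span -0.63 to 0.86, with a median of 0.13, while the tested cytokine ligands spread from -1.93 to 6.82.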

How the data were processed

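Bulk RNA-seq of splenic CD8+ T cells was analysed, with 1 library per medium. The authors deposited raw counts per gene, whole numbers with no scaling; the build was mm10 according to the submitters' processing notes. Aligner, counter, annotation release and use of strand: not given in the sources used here. Per the labels' protocols, TRIzol RNA went into either an mRNA kit or a whole-RNA kit, and the kit of each library is not stated. The columns were matched to samples by name.

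Symbols, positions (1-based) and exon lengths came from GENCODE M21 (GRCm38, the assembly of mm10): 54495 identifiers matched and 37 did not. Promoter sequences came from RefSeq (GRCm38.p6). Counts were scaled by TMM (edgeR 4.0.16, R 4.3.3), giving factors of 0.997 for the methionine-free and 1.003 for the complete-medium library. Log2 differences used a prior count of 0.5; printed folds are ratios of scaled counts. Intervals were exact (Clopper-Pearson, scipy 1.17.1). With 1 library per medium, intervals cover counting error only. Reads carry no stated molecular identifiers, so copies of 1 molecule may be counted more than once. The intervals may then be too narrow even for counting error. Calls rest on size, at 2-fold or 1.5-fold. The steps were tested on simulated Poisson counts. These held no spread between cultures, so that test says nothing about the missing replicates.

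Members and lists were chosen with earlier results of these data known; some genes stand in more than 1 list, and 1 gene is not reported here. The rule for named genes took all members and SOCS box partners, the nearest coding genes, a fixed set of pathway genes, and list genes past 2-fold with a mean of at least 50 counts, at most 6 per list. It would have named the genes nearest in difference to any member past 2-fold, of which there were none. Usp18, Epor, Cd4, Ighm, C1qa, C1qc, Fcgr1, Il2, Il21, Psmb8, Psmb9, Iigp1 and the genes named among cell markers were named after their values were seen. So were Ifng, Osm, Il22 and Bcl3. Alternatives were total-count, DESeq2 1.42.0 and upper-quartile scaling, TMM over protein-coding genes or without the 50 genes with the most counts, a prior count of 2, no minimum or a minimum of 100 counts, 1.5-fold, intervals without 1, and the longest transcript as length. Ratios between pairs were added after seeing the data.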

Additional observations from a re-analysis of the deposited data

How the results depend on the processing

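Under the 6 alternatives of scaling or prior count, each member kept its direction and stayed within its counting interval: Cish lay between 0.60 and 0.62 on the log2 scale, Socs4 between 0.71 and 0.74, Socs5 between 0.85 and 0.87, Socs2 between -0.64 and -0.62 and Socs3 between -0.47 and -0.44. The summed ratios of Cish with Socs1 to Socs3 and of Socs4 to Socs7 likewise stayed within their intervals under the 5 scaling alternatives. No member reached 2-fold under any scaling, prior or minimum count tried. Each scaling moved all genes by nearly the same small amount, and a minimum count does not change a fold. These alternatives could therefore change little for the members. At 1.5-fold in place of 2-fold, 3 members were higher and 1 lower, and over all genes 2050 were higher and 2346 lower, against 756 and 1211 at 2-fold. Dropping the minimum count put 3333 genes past 2-fold in the higher direction and 4877 in the lower, and a minimum of 100 counts left 264 and 576; these alternatives test more or fewer genes by construction. The call of Bcl2l1 at 2-fold, at a ratio of 2.01, ended when TMM was computed over protein-coding genes, which left 0 of the 20 STAT5 targets at least 2-fold higher. With the longest transcript as length, 14 of 16 family shares moved beyond counting error. No paired analysis was possible because there is 1 library per medium. The depth limits Socs2, Socs5 and Socs6 most, which had 316 to 767 counts.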
